A study of Mus musculus with 4 samples.

Results

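The transcription factors that give the small intestine its identity were followed in intestine of mice lacking the Cyp3a cluster and of wild-type mice. Their 8 genes were Cdx1, Cdx2, Hnf4a, Hnf4g, Gata4, Gata6, Pdx1 and Onecut2. They were taken by symbol, with no cut on their measured values but with earlier results of these data known. All 8 were measured, among 14389 genes tested. The knockout group (KO) was labelled Cyp3a-/-, a deletion of neighbouring genes for cytochrome P450 enzymes that oxidise drugs and steroids, and the reference was labelled wild type (WT). Each group had 2 Cy3-labelled arrays (KO 1 and KO 2, WT 1 and WT 2) of total RNA from small intestine, made in 2 experiments with different animals. The strain, age and sex of the mice, the length of bowel taken and the number of animals behind an array are not given in the sources used here, so p-values below measure only the spread between these arrays.

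These factors act as a network in the gut epithelium. CDX2 and its relative CDX1 are homeodomain proteins that set and keep intestinal fate, and mouse intestine that loses Cdx2 takes on features of the upper gut. HNF4A and HNF4G are nuclear receptors that together drive the maturation of mouse enterocytes, their brush border and their fat handling. GATA4 and GATA6 are zinc-finger factors, and GATA4 keeps the mouse jejunum from adopting the ileal programme. PDX1 is a homeodomain factor of pancreas and duodenum, and ONECUT2 is a cut-homeodomain factor of gut and liver.

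A level below is a probe's log2 signal after its array's 75th percentile was taken off, so 0 is a signal at that percentile. The percentile was a signal of 322 and 175 in KO 1 and KO 2 and of 226 and 356 in WT 1 and WT 2, between 55.1% and 64.3% of 39429 probes were well above background on an array, and no spot was saturated. Differences are KO minus WT, with the standard error (SE) and 95% interval of limma's fit, and the number of arrays limits their precision. Cyp3a11, a major P450 gene of the deleted cluster, had levels of -5.77 and -4.52 in KO 1 and KO 2, neither well above background, against 5.05 and 5.78 in WT 1 and WT 2. Its brightest probe was lower in KO by at least 920-fold (limma's adjusted p = 0.00237), a bound set by the lowest signal well above background on the KO arrays. KO 1 stood apart over all genes: its correlation with KO 2 was 0.948, and with WT 1 and WT 2 it was 0.966 and 0.962, while KO 2 correlated at 0.981 and 0.980 with WT 1 and WT 2. KO 1 and WT 2 shared a slide and a scan, and the differences between those 2 arrays are given below as within-slide values.

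None of the 8 transcription factors passed the threshold of 0.05 after adjustment over all genes (limma, adjusted p = 1.00 for each), where 0.0417% of genes tested did in either direction. None had an unadjusted p under 0.05, where 0.438% of genes tested did. In none of the 8 did both KO arrays lie above both WT arrays, where 8.66% of genes did, and in none did they lie below, where 6.07% did. The measured mean was higher in KO than in WT for 7 of the 8, where 56.3% of all genes had a positive difference. The median difference of the 8 was 0.25, against 0.04 over all genes. Without KO 1 only 2 of the 8 differences were positive (median -0.13). Under normexp background correction of median signals 1 was (median -0.30), where 14 spots of KO 2 had a flagged local background. With those backgrounds set to the array's median, a step added after seeing the data, 6 were positive (median 0.23). In simulated data of this design, 0.4% of 2-fold, 29.0% of 4-fold and 90.4% of 16-fold changes were called over 14389 genes, so changes of the size of the differences of the 8 would seldom be called. All 8 were well above background on all 4 arrays, each through 1 named probe, so no second probe was there to set beside it. The probes of different genes bind with different strength, so their levels are not ranked against each other.

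**Figure D1:**
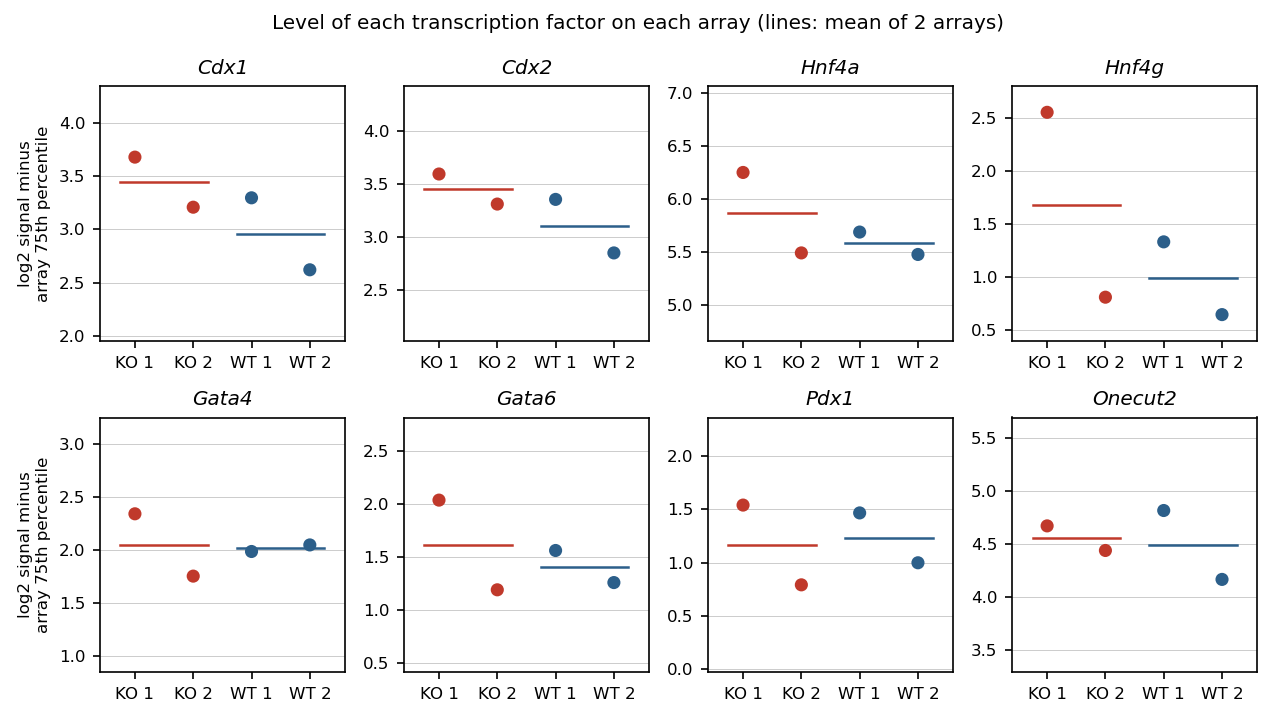
Log2 signal minus the array's 75th percentile (y axis) of each of the 8 genes on each array (x axis, KO arrays at the left), with points for arrays, a line for the mean of 2 arrays and the same span on every y axis. KO 1 is the highest array for 7 genes, and the KO and WT points overlap in every panel.

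Cdx2 and Cdx1 had higher KO than WT means, by less than the spread of their arrays allowed to call. Cdx2 had levels of 3.59 and 3.31 in KO 1 and KO 2, against 3.35 and 2.85 in WT 1 and WT 2. WT 1 lay between the KO arrays, so the genotypes overlapped. Cdx2 averaged 3.45 ± 0.20 in KO and 3.10 ± 0.36 in WT (SD, n = 2 each), a difference of 0.35 (SE 0.31, 95% interval -0.40 to 1.10). Cdx1 had levels of 3.68 and 3.21 in KO 1 and KO 2, against 3.30 and 2.62 in WT 1 and WT 2. As for Cdx2, KO 1 was the highest array, WT 2 the lowest, and WT 1 stood above KO 2. The Cdx1 difference was 0.49 (SE 0.35, 95% interval -0.37 to 1.34), or 0.15 without WT 2. Within the shared slide the difference was 0.74 for Cdx2 and 1.06 for Cdx1. These were the only members of the 8 whose level in KO 2 was above the WT mean, by 0.21 for Cdx2 and 0.25 for Cdx1.

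Hnf4g showed the widest spread of the 8, and it came from 1 array. Its levels were 2.55 and 0.81 in KO 1 and KO 2, against 1.33 and 0.64 in WT 1 and WT 2. KO 1 was well above the other arrays, and KO 2 lay between the WT arrays. Hnf4g averaged 1.68 ± 1.23 in KO and 0.99 ± 0.48 in WT (SD, n = 2 each), a difference of 0.69 (SE 0.59, 95% interval -0.75 to 2.13). Relative to the WT mean, KO 1 was at 1.56 and KO 2 at -0.18. Within the shared slide the difference was 1.90. Without KO 2 the difference was 1.56 and passed the threshold (limma's adjusted p = 0.0268), as did 132 genes higher, or 0.917% of all genes, and 295 lower, while without KO 1 it was -0.18 and did not (adjusted p = 1.00). In those fits the lone KO array is assumed to vary as the WT arrays do. Hnf4a, its partner, had levels of 6.25 and 5.49 in KO 1 and KO 2, against 5.69 and 5.48 in WT 1 and WT 2. KO 1 was again the highest array, and KO 2 was close to WT 2. The Hnf4a difference was 0.29 (SE 0.38, 95% interval -0.63 to 1.21), with 0.77 within the shared slide and -0.09 without KO 1.

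Both annotated starts of Hnf4a are shown. The upstream promoter is commonly called P2 and the downstream one P1, and the array does not say which start the measured transcripts used. The sequences are RefSeq's for GRCm38.p6, 250 bases before to 50 after the start, from chr2:163506607-163506906 (plus strand) for P2 and chr2:163546905-163547204 (plus strand) for P1. That of Cdx2 is from chr5:147307200-147307499 (minus strand). Capitals mark letters found on either strand. ATCAAT is a core bound by ONECUT factors. AGATAA is the core for GATA factors. GTTAAT is one for the HNF1 family.
Hnf4a P2: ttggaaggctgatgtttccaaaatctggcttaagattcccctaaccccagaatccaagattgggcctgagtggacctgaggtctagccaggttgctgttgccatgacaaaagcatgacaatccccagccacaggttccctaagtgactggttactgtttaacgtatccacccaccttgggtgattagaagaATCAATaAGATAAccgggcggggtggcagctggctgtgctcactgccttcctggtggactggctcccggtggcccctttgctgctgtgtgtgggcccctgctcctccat
Hnf4a P1: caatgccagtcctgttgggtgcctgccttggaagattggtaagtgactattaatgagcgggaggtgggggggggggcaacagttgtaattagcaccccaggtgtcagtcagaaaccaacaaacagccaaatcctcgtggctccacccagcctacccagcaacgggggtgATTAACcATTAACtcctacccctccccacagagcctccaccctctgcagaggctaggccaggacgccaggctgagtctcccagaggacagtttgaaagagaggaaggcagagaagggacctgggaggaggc
Cdx2: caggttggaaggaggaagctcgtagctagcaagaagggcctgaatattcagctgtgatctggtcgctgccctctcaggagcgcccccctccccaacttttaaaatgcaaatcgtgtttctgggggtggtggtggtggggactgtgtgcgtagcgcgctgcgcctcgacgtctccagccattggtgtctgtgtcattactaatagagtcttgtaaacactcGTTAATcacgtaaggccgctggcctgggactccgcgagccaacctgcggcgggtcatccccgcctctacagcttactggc

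The P2 window held ATCAAT with its first base 59 bases before the start and AGATAA 52 bases before it, next to each other without overlap. The P1 window held GTTAAT on the opposite strand at 81 and 74 bases before the start, and the Cdx2 window held it once, 30 bases before the start. Over 32851 such windows of the RefSeq table, 7.54% held ATCAAT, 11.2% AGATAA and 7.10% GTTAAT on either strand. TAATG, a core bound by PDX1, was found in the P1 and Cdx2 windows, in 1 place overlapping GTTAAT in P1, and in 26.8% of all windows. CATAAA, a CDX core held by 11.9% of windows, and CAAAGT, part of an HNF4 site held by 14.4%, were not among the letters of these 3 windows or of that of Pdx1. Of the 8 genes, 3 had an entry in the table, with 4 windows. These matches describe letters and were not tied to binding.

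Gata4 and Gata6 had differences smaller than their SEs. Gata4 had levels of 2.34 and 1.75 in KO 1 and KO 2, against 1.98 and 2.05 in WT 1 and WT 2. Both WT arrays fell between the KO arrays. The Gata4 difference was 0.03 (SE 0.30, 95% interval -0.71 to 0.77), or 0.29 within the shared slide, and its sign turned under quantile normalization (-0.06). Gata6, which also acts in smooth muscle and endoderm, had levels of 2.04 and 1.19 in KO 1 and KO 2, against 1.56 and 1.26 in WT 1 and WT 2. The KO arrays were the highest and the lowest of the 4. The Gata6 difference was 0.20 (SE 0.36, 95% interval -0.67 to 1.08), or -0.22 without KO 1, and 0.78 within the shared slide.

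Pdx1 was the only member of the 8 with a negative difference. It had levels of 1.54 and 0.79 in KO 1 and KO 2, against 1.47 and 1.00 in WT 1 and WT 2. The KO arrays were again the highest and the lowest. The difference was -0.07 (SE 0.36, 95% interval -0.94 to 0.81), 0.54 within the shared slide, and 0.31 without KO 2. Onecut2 had levels of 4.67 and 4.44 in KO 1 and KO 2, against 4.82 and 4.17 in WT 1 and WT 2. It was the only one of the 8 with its highest level in WT 1, and both KO arrays lay between the WT arrays. The Onecut2 difference was 0.06 (SE 0.34, 95% interval -0.77 to 0.90), 0.50 within the shared slide, and -0.26 without WT 2.

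**Figure D2:**
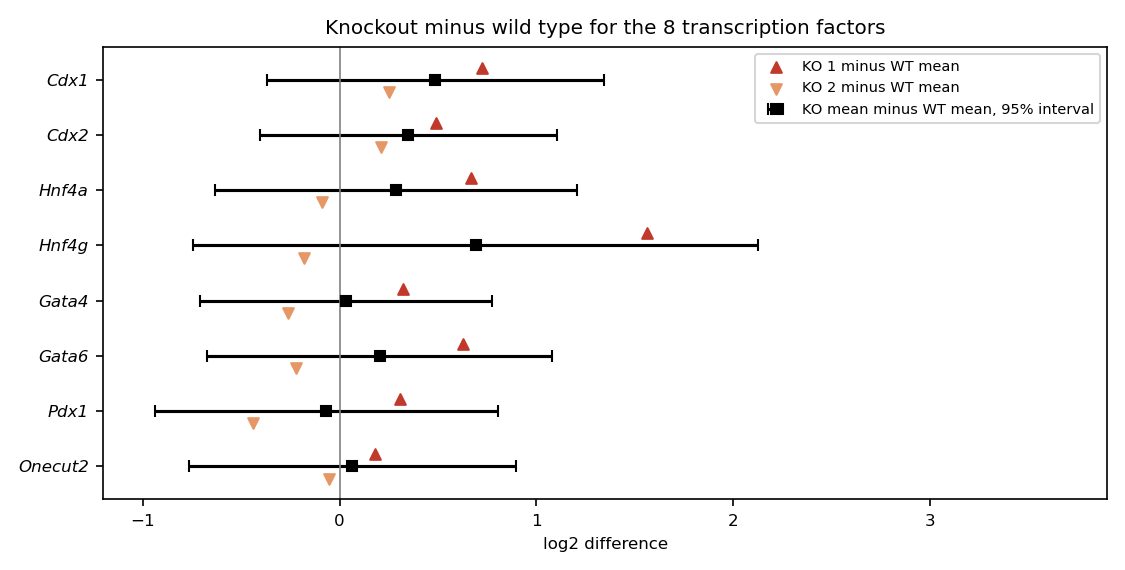
Log2 difference from wild type (x axis) for each of the 8 genes (rows): squares with bars are the KO mean minus the WT mean with its 95% interval, and triangles are KO 1 and KO 2 each minus the WT mean. All 8 intervals include 0, all 8 upward triangles (KO 1) lie above 0, and 2 of the 8 downward triangles (KO 2) do.

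The order of the arrays was much alike among the 8 genes. KO 1 was above KO 2 for 8 of 8, where 47.5% of all genes had that order, and it was the highest array for 7 of 8, where 34.2% of all genes had it so. The median of KO 1 minus KO 2 was 0.67 for the 8 and -0.04 for all genes. WT 1 was above WT 2 for 7 of 8 (53.9% of all genes), Gata4 being the exception, with a median difference of 0.49 for the 8 and 0.04 for all genes. Relative to the WT mean, the median of the 8 was 0.56 in KO 1 and -0.13 in KO 2. KO 2 was above the WT mean for 2 of 8, against 55.1% of all genes. Without KO 2 all 8 differences were positive.

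Genes known in the mouse to depend on these factors were mostly highest in KO 1 too. Of 13 genes described as depending on CDX2, all tested, 12 had a positive difference, with a median of 0.18, and none passed the threshold. KO 1 was the highest array for all 13, and KO 2 was below the WT mean for all 13, with medians of 0.94 and -0.45 relative to that mean. Sis, the sucrase-isomaltase of the brush border, had levels of 4.39 and 2.85 in KO 1 and KO 2, against 3.23 and 2.52 in WT 1 and WT 2. Lct, the lactase gene, had 6.37 and 4.85 in KO 1 and KO 2, against 5.50 and 4.54 in WT 1 and WT 2. In both genes KO 1 was the highest array and WT 2 the lowest, as for Cdx1, Cdx2 and Hnf4g. Of 19 genes described as depending on HNF4, all tested, all 19 had a positive difference, with a median of 0.20, and none passed. Their medians relative to the WT mean were 0.67 in KO 1 and -0.21 in KO 2, KO 1 was the highest array for 14 of 19, and KO 2 was above the WT mean for 5 of 19. Ppara, a nuclear receptor of fatty acid use, was the only gene of the 19 whose genotypes did not overlap, where 8.66% of all genes had both KO arrays higher. Its levels were 2.21 and 1.98 in KO 1 and KO 2, against 1.86 and 1.21 in WT 1 and WT 2 (difference 0.55, SE 0.32, limma's adjusted p = 1.00). Apob, which encodes the main chylomicron protein, had a difference of 0.53 (SE 0.40).

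Other transcription factors of the gut epithelium were split in direction. Of 24 tested out of 26 listed, 11 had a positive difference, the median was -0.03, and none passed the threshold. KO 1 was the highest array for 10 of the 24 and the lowest for 11, and above KO 2 for 12. Both KO arrays lay above both WT arrays for 2 of the 24, where 8.66% of all genes had it so. They lay below for 2, where 6.07% did. Elf3, an epithelial ETS factor, had levels of 3.15 and 2.43 in KO 1 and KO 2, against 2.37 and 2.40 in WT 1 and WT 2, with no overlap (difference 0.41, SE 0.33). Ascl2, a factor of crypt stem cells, had 0.65 and 1.63 in KO 1 and KO 2, against 1.67 and 1.87 in WT 1 and WT 2, also with no overlap (difference -0.63, SE 0.38). Sox9, a factor of the crypt, had -0.42 and 1.44 in KO 1 and KO 2, against 0.95 and 1.86 in WT 1 and WT 2. The epithelial factor Ehf had 2.41 and 4.11 in KO 1 and KO 2, against 3.65 and 4.43 in WT 1 and WT 2. Sox9 and Ehf were thus lowest in KO 1 and highest in WT 2, the reverse of Hnf4g at those arrays. Cdx4 and Onecut1 did not pass the filter on dim signals.

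By the root mean square difference of their array deviations from the gene mean over the 4 arrays, the genes most like Hnf4g were Soat2 (0.07), a cholesterol-esterifying enzyme of gut and liver, Sis (0.08) and Hsd17b13 (0.08), a lipid droplet protein. Those most like Cdx1 were Dapk2 (0.04), a kinase, Aoc1 (0.05), the enzyme that breaks down histamine, and Bmp1 (0.05), a metalloprotease. Hnf4g and Cdx1 were taken because they had the widest ranges over the arrays, 1.90 and 1.06. With 4 arrays many genes share an order, and this likeness has no test.

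**Figure D3:**
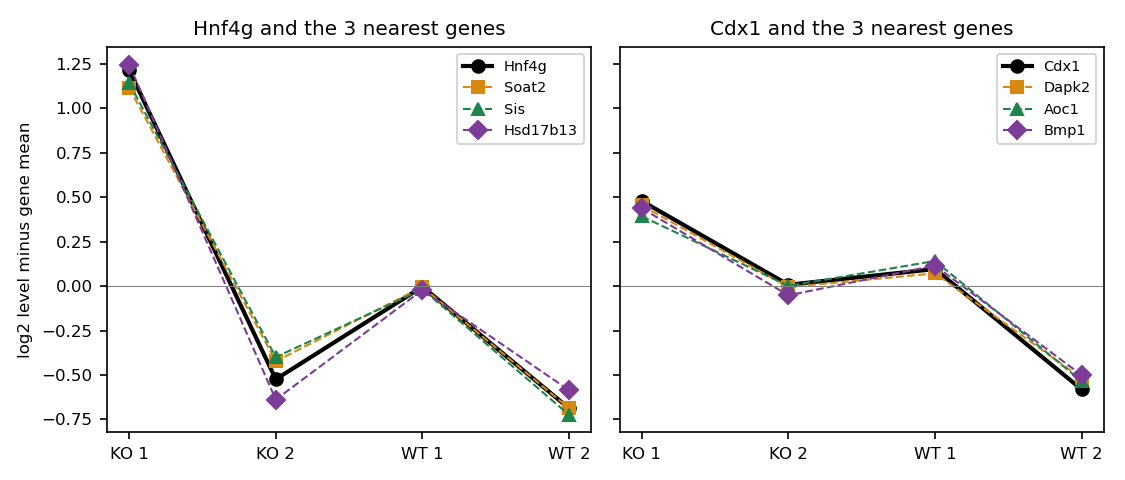
Log2 level minus the gene's mean over the 4 arrays (y axis) on each array (x axis, KO arrays at the left) for Hnf4g and Cdx1 (thick black lines) with the 3 genes nearest to each (dashed lines). In both panels KO 1 is the highest and WT 2 is the lowest or near it, except that KO 2 is the lowest for Hsd17b13.

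Markers of several cell types differed between the arrays as well. Enterocyte markers, 10 of 10 tested and all well above background on each array, had medians of 0.96 and -0.35 in KO 1 and KO 2 relative to the WT mean, and of 0.28 and -0.28 in WT 1 and WT 2. The list shares 2 genes with the CDX2-dependent and 3 with the HNF4-dependent genes. Their summed signal, in units of the array's 75th percentile, was 1014 and 614 in KO 1 and KO 2, against 833 and 526 in WT 1 and WT 2. Smooth muscle markers, 8 of 8 tested, went the other way, with a summed signal of 172 and 514 in KO 1 and KO 2, against 303 and 337 in WT 1 and WT 2. All 8 were lowest in KO 1 and above the WT mean in KO 2. Fibroblast markers, 7 of 7 tested, summed to 28.2 and 57.6 in KO 1 and KO 2, against 35.3 and 50.3 in WT 1 and WT 2. Enteroendocrine markers, 7 of 9 tested, had medians of 0.55 and -0.33 in KO 1 and KO 2 relative to the WT mean. Crypt stem cell markers, 7 of 8 tested, had medians of -0.15 and 0.09. KO 1 was above KO 2 for 7 of 7 enteroendocrine and 2 of 7 crypt markers, where 47.5% of all genes had that order. Markers of the epithelium at large such as Epcam, 10 of 10 tested, summed to 626 and 671 in KO 1 and KO 2, against 629 and 496 in WT 1 and WT 2. Their median level ran the other way between the KO arrays, at 5.15 and 4.28 in KO 1 and KO 2, against 4.65 and 4.47 in WT 1 and WT 2, and KO 1 was above KO 2 for 6 of the 10. In bulk RNA, fewer cells of a type and less RNA per cell cannot be told apart, and the part of cell content in the values of the 8 factors was not tested.

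**Figure D4:**
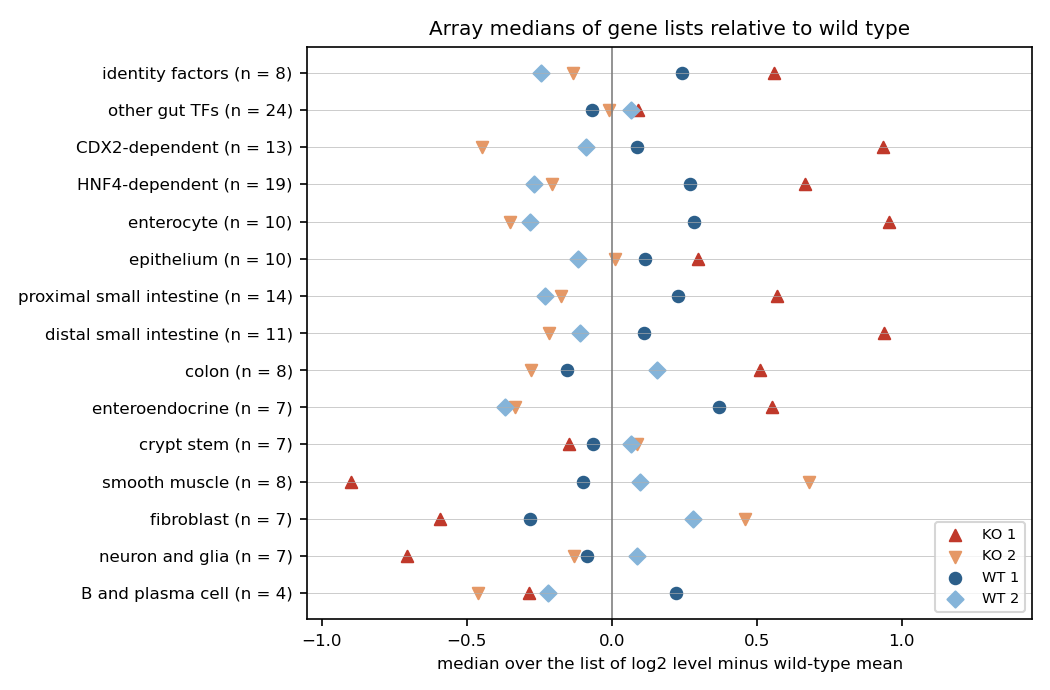
Median over each gene list of the log2 level minus the gene's WT mean (x axis) for each array (symbols) and list (rows, n genes tested). For the 8 identity factors, the CDX2-dependent and HNF4-dependent genes and the enterocyte markers, KO 1 lies at the right and KO 2 left of 0, while for smooth muscle KO 1 lies at -0.90 and KO 2 at 0.68.

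Values were also set against the 10 epithelium markers of the same array, on scales added after the values were seen, and the results depended on how the list was summarised. The median level of the list was higher in KO 1 than in KO 2 by 0.87, and the median of its genes' deviations from their own means by 0.36. With the median level taken off, KO 1 was above KO 2 for 1 of the 8 (11.5% of all genes), Hnf4g, and with the median deviation taken off for 6 of 8 (27.2% of all genes). On the first scale Hnf4a was higher without overlap, at 1.10 and 1.22 in KO 1 and KO 2, against 1.04 and 1.01 in WT 1 and WT 2, as were 2.3% of all genes. Pdx1 was lower without overlap on it, at -3.61 and -3.49 in KO 1 and KO 2, against -3.18 and -3.47 in WT 1 and WT 2, as were 3.97% of all genes. On the second scale both of these overlapped, and Cdx1 and Cdx2 were the 2 members higher without overlap (3.34% of all genes), with none lower (7.89% of all genes). Cdx1 stood there at 3.42 and 3.32 in KO 1 and KO 2, against 3.25 and 2.78 in WT 1 and WT 2. Cdx2 stood at 3.34 and 3.42 in KO 1 and KO 2, against 3.31 and 3.01 in WT 1 and WT 2. Relative to the WT mean, KO 1 ranged over the 8 from -0.41 (Onecut2) to 0.97 (Hnf4g) on the first scale and from -0.13 (Onecut2) to 1.25 (Hnf4g) on the second. None of the 8 passed the threshold on either scale (limma's adjusted p = 1.00 for each).

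Markers of position along the gut gave no call. Of 14 genes of the proximal small intestine, all tested, 10 had a positive difference (median 0.14), and of 11 tested genes of the distal small intestine 10 did (median 0.29). Relative to the WT mean the proximal median was 0.57 and -0.17 in KO 1 and KO 2 and the distal one 0.94 and -0.22. Of the distal genes 2 had both KO arrays above both WT arrays, where 8.66% of all genes did, and none had them below. Guca2a, the guanylin gene, was at 1.51 and 1.13 in KO 1 and KO 2, against 0.93 and 0.21 in WT 1 and WT 2 (difference 0.75, SE 0.34, limma's adjusted p = 1.00). The other was Slc10a2, which was dim, well above background on 2 of the 4 arrays (difference 1.14, SE 0.58). The tested stomach genes differed more between the KO arrays than between the genotype means. Pgc, of smallest p in that list, had levels of 0.04 and 3.09 in KO 1 and KO 2, against 2.92 and 2.96 in WT 1 and WT 2. Its difference was -1.37 (SE 0.91), and its WT arrays were alike. Gkn2, a gastric surface mucous cell gene that was well above background on 3 of the 4 arrays, had levels of -6.64 and 7.24 in KO 1 and KO 2, against 1.27 and 6.49 in WT 1 and WT 2. Tff1, a trefoil peptide of the same cells, had -0.16 and 9.45 in KO 1 and KO 2, against 4.57 and 8.56 in WT 1 and WT 2. Tff2, another gastric trefoil peptide gene, differed less, at 8.79 and 10.42 in KO 1 and KO 2, against 10.17 and 9.68 in WT 1 and WT 2. The 7 tested genes of the list, out of 13, summed to 446 and 2237 in KO 1 and KO 2, against 1182 and 1306 in WT 1 and WT 2. Tff2 made up most of that sum on every array. The sum thus hides that Gkn2 and Tff1 were far lower in WT 1 than in WT 2. KO 2 and WT 2 were the lowest pair of arrays for 7 of the 8 factors, all but Gata4, where 21.3% of all genes had that pair lowest, and the part of stomach transcripts in their values was not tested.

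Pancreas also expresses Pdx1 and Hnf4a, and liver expresses Hnf4a. Of 12 acinar pancreas markers 3 passed the filter on dim signals, with a summed signal of 0.50 and 0.48 in KO 1 and KO 2, against 0.26 and 0.43 in WT 1 and WT 2, and the lipase gene Pnlip and the trypsin gene Prss2 were among the 9 that did not. Of 5 islet markers all passed, 3 of them dim on some arrays, with a summed signal of 6.13 and 2.49 in KO 1 and KO 2, against 2.89 and 3.54 in WT 1 and WT 2. Most of that sum was Mafa, at 2.49 and 1.13 in KO 1 and KO 2, against 1.36 and 1.63 in WT 1 and WT 2. The other islet markers had levels below 0 on every array. KO 1 was above KO 2 for 5 of 5, as for Pdx1, where 47.5% of all genes had that order. KO 2 was above the WT mean for none of the 5, where 55.1% of all genes were. The 3 dim ones, Iapp, Ins1 and Nkx6-1, were well above background on 2 of the 4 arrays. Their KO 2 levels, -5.39, -4.75 and -4.81, lay below -4.02, the lowest level well above background on that array. The order of those 3 genes in both counts is thus not informative. Of 9 liver markers 5 passed, and the albumin gene Alb, well above background on 2 of the 4 arrays, had levels of -5.56 and -2.60 in KO 1 and KO 2, against 1.33 and -5.50 in WT 1 and WT 2. The summed signal of the 5 was 0.67 and 2.66 in KO 1 and KO 2, against 5.43 and 2.45 in WT 1 and WT 2. The part of other organs in the values of Pdx1 and Hnf4a was not tested.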

How the data were processed

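The 4 arrays (Agilent, mouse, Cy3 only) were grouped by genotype from the labels. Agilent Feature Extraction 11.5.1.1 turned the scans into signals, per the submitters' processing notes. The deposited intensity is a background-subtracted, detrended signal not scaled between arrays, per the file headers, which name mm9 as the design's build, and other columns, also deposited, hold spot quality flags. The authors' deposited value table holds log2 values, which over 39408 probes matched log2 intensity minus the array's 75th percentile and the probe's median over the 4 arrays to within 0.00341, so it keeps no levels. Its column medians were -0.108 and 0.124 for KO 1 and KO 2 and 0.053 and -0.095 for WT 1 and WT 2, and scale, centring and direction were all settled by this match.

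Control spots and 91 to 129 outlier spots per array were left out, spots of a probe were averaged in log2, and each array's 75th percentile was subtracted. Of 39429 probes, 28025 matched 1 symbol through their unversioned accession in the RefSeq table of GRCm38.p6, used for names and order only. Probes well above background on at least 2 arrays were kept (24002), and the brightest per symbol gave 14389 genes. KO and WT were set against each other in limma's lmFit and trended eBayes (version 3.58.1, R 4.3.3), with Benjamini-Hochberg adjustment over all genes and a threshold of 0.05. The fit was tested on simulated data. The members and gene lists were chosen with earlier results of these data known. Named genes are the 8, Cyp3a11, the nearest in pattern, and genes from the up to 4 of smallest p per list and among the chromosome 5 neighbours. Not all of those up to 4 are named, so the named ones are not always of the smallest p. Pnlip and Prss2 were chosen after their values were seen. Alternatives were other background corrections, scalings, filters, probe rules, variances, a replicate block, the shared slide, and each array left out. The scanner files have no mean spot signal among the columns used here, so normexp ran on median signals.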

Additional observations from a re-analysis of the deposited data

How the results depend on the processing

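None of the 8 genes passed the threshold under 16 of the 17 alternative fits, and Hnf4g passed without KO 2. Without each array in turn the number of members called ranged from 0 to 1, that of all genes from 0 to 427 (6 with all arrays) and that of genes in the other lists from 0 to 16 (0 with all arrays). The differences of the 8 then ranged from 0.15 to 0.82 for Cdx1, 0.10 to 0.60 for Cdx2, -0.091 to 0.67 for Hnf4a, -0.18 to 1.56 for Hnf4g, -0.26 to 0.32 for Gata4, -0.22 to 0.63 for Gata6, -0.44 to 0.31 for Pdx1 and -0.26 to 0.39 for Onecut2. Leaving out KO 1 turned 5 signs, those of Hnf4a, Hnf4g, Gata4, Gata6 and Onecut2.

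Within the shared slide, with no test, the differences were 1.06 for Cdx1, 0.74 for Cdx2, 0.77 for Hnf4a, 1.90 for Hnf4g, 0.29 for Gata4, 0.78 for Gata6, 0.54 for Pdx1 (reversed) and 0.50 for Onecut2. The sign also turned for Gata4 and Onecut2 under quantile normalization (-0.062 and -0.056) with the epithelium list's median level as scale (-0.12 and -0.090) and with its median deviation (-0.099 and -0.065). Normexp on median signals, with no background replaced, gave -0.15 for Cdx1, -0.28 for Cdx2, -0.35 for Hnf4a, -0.45 for Gata4, -0.16 for Gata6 and -0.57 for Onecut2. It called 13 genes. On KO 2 alone, 14 spots had a flagged local background, up to 37800 where the median was 26. With these set to the median, a step added after seeing the data, 6 genes were called and the sign turned only for Gata4 (-7.61e-05). The epithelium scales, also added later, called 14 genes, 1 of them in the lists, by the median level and 7 genes by the median deviation, and moved the median of all genes to -0.12 and -0.092. Requiring signal on all 4 arrays left 0 genes called, with 41 at an unadjusted p under 0.05.

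Deviations of same-numbered arrays correlated at 0.05 over 14389 genes, so the numbers were not taken as pairs. With the replicate block, 32 genes and 2 in the lists were called, and 0 of the 8.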

Other observations

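Cdx2 and Pdx1 are neighbours on chromosome 5, the chromosome of the deleted Cyp3a cluster, with 22 protein-coding genes between the cluster and Pdx1 in the order of the RefSeq annotation and none between Pdx1 and Cdx2. Of the genes from the cluster to 10 past Cdx2, 19 were tested beside Cdx2 and Pdx1. None passed the threshold (limma, smallest adjusted p = 1.00), and 11 had a positive difference, where 56.3% of all genes did. In 2 of the 19 both KO arrays lay above both WT arrays, where 8.66% of all genes did. In 2 they lay below, where 6.07% did. The median difference of the 19 was 0.06. The one with the smallest p, 1700001J03Rik, was not well above background on either KO array and was lower in KO by at least 2.12-fold. Katnal1, a microtubule-severing protein gene, had a difference of -0.49 (SE 0.42), and Usp12, a ubiquitin protease gene, one of 0.34 (SE 0.36).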
